A study of Homo sapiens with 6 samples.

Results

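The genes described here are MTF1, which encodes the metal-responsive transcription factor of the cell, and 9 genes of zinc transporters: SLC30A1, SLC30A4, SLC30A5 and SLC30A9 of the SLC30 (ZnT) family, and SLC39A1, SLC39A6, SLC39A7, SLC39A9 and SLC39A10 of the SLC39 (ZIP) family. They were chosen by symbol, and all 10 are among the 27470 genes of the count table. RNA was profiled by 3ʹ mRNA sequencing in 22Rv1 cells (a human line of castration-resistant prostate cancer) that stably carry a doxycycline (Dox)-inducible ABHD5 transgene from a lentiviral vector. The Control group holds 3 libraries of these cells grown without Dox for 48 h, and the OE group (overexpressing ABHD5) holds 3 libraries of the same engineered cells grown with Dox for 48 h. Cells of both groups therefore carry the transgene, and the infected cells were selected for drug resistance. No library of parent cells given Dox was used here, so that Dox and ABHD5 cannot be told apart. Nothing states that the libraries of a group came from separate cultures, and the p-values then measure only the spread between libraries, which may be technical.

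Zinc is held at a low free level in cells by transporters and by binding proteins. ZnT proteins move zinc out of the cytosol, across the plasma membrane or into vesicles and organelles, and ZIP proteins move it into the cytosol from outside or from organelles. MTF1 binds zinc through its zinc fingers and then activates genes that carry metal response elements, among them the metallothionein genes, whose small cysteine-rich products bind zinc, and SLC30A1. Normal prostate epithelium is known for an unusually high zinc content, which is largely lost in prostate cancer.

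With Dox, the level of MTF1 transcripts did not differ detectably, while SLC39A7, SLC39A10 and SLC39A1 were called lower. These calls were kept in 14, 11 and 6 of 14 alternative fits. SLC30A4 read higher, but it entered the test through its OE libraries only. SLC30A4 had a log2 fold change (OE over Control) of 2.44, and the 3 SLC39 genes had -0.53, -0.41 and -0.36. In all, 4 of the 10 genes had a Benjamini-Hochberg adjusted p under 0.05 in edgeR's quasi-likelihood test, where 25.5% of all 12233 genes tested did so. Of these 4, 1 was higher, against 11.9% of all genes, and 3 were lower, against 13.7% of all genes. The median log2 fold change was -0.22 for the 10 genes and 0.02 for all genes tested, and the median size without its sign was 0.33 and 0.30. The CPM values of the OE and Control libraries did not overlap for 6 of the 10 genes, where this held for 39.5% of all genes tested. Of these 6, 1 was higher, against 19.0%, and 5 were lower, against 20.5%. In both counts the higher gene was SLC30A4, which passed the filter on low counts through its OE libraries only. Its place in these counts is therefore no result. All levels below are CPM, the count of a gene relative to the TMM-scaled total of its library, and are compared between libraries and not between genes.

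**Figure D1:**
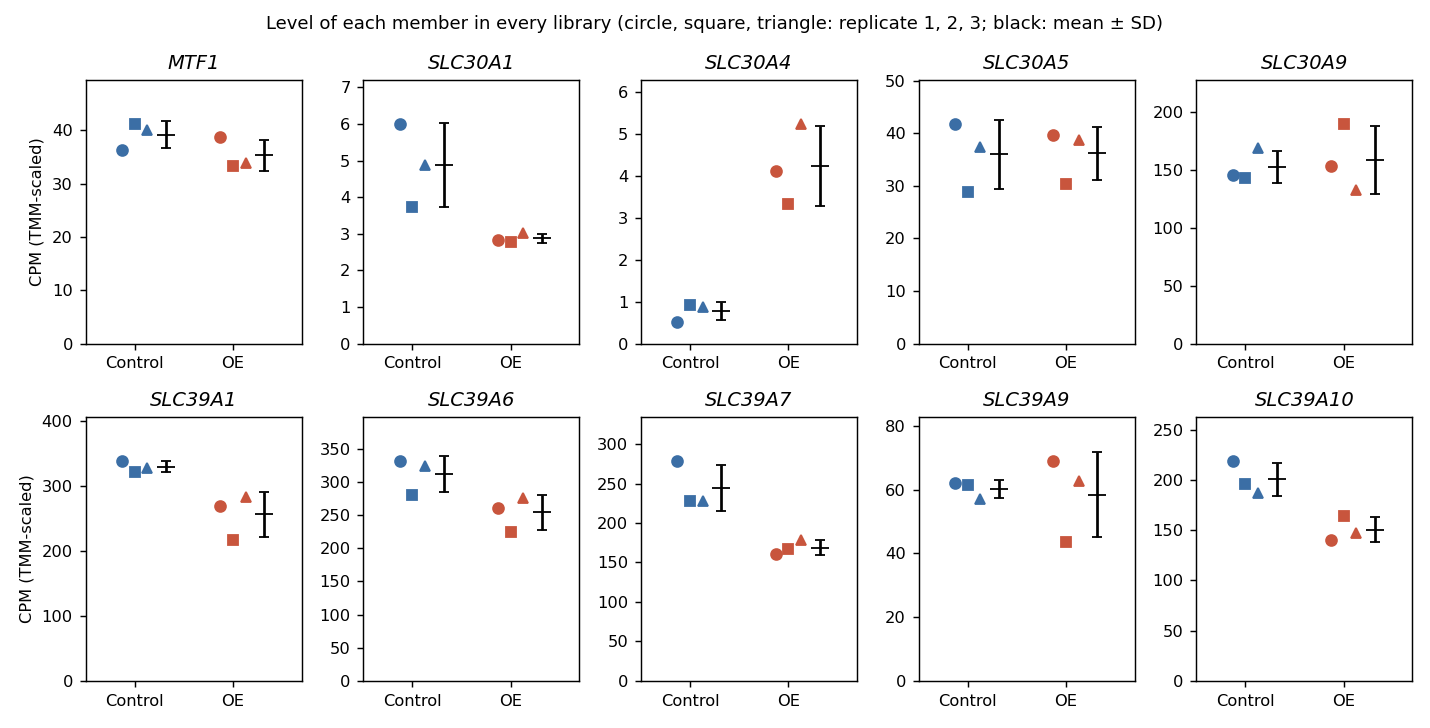
CPM (TMM-scaled, linear axes from 0) of the 10 genes in each Control library (blue) and OE library (red), with circles, squares and triangles for replicates 1, 2 and 3 and black bars for the mean ± SD (n = 3). The OE libraries of SLC30A4 lie between 3.34 and 5.25 CPM, all above the Control libraries at 0.522 to 0.930 CPM, and those of SLC39A7 lie between 160.5 and 178.9 CPM, all below the Control libraries.

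Library totals ranged from 3394672 to 7271771 counts on genes. ABHD5, the gene under the Dox promoter, had 61.4 ± 3.0 CPM in Control and 116.1 ± 21.3 CPM in OE libraries (SD, n = 3 each), with a log2 fold change of 0.91 (adjusted p = 1.98e-04, edgeR). Each of 10 markers of prostate luminal cells was counted in every library, the endothelial genes PECAM1, VWF and CDH5 and the basal genes KRT5 and KRT14 were at 0, and the basal gene TP63 had at most 1 count. The luminal markers summed to 1565 to 1671 CPM in Control and 991 to 1106 CPM in OE libraries. Of these 10, 6 were lower at an adjusted p under 0.05 (edgeR), where 13.7% of all genes tested were. The neuroendocrine list (CHGA and INSM1 at 0, SYP counted in every library) summed to 19.1 to 23.9 CPM in Control and 37.6 to 39.1 CPM in OE libraries. The fibroblast list (COL1A1, COL1A2, COL3A1) summed to 1.55 to 3.92 and 3.62 to 7.62 CPM, and the leukocyte list (PTPRC, CD68, and CD3E at 0) to 0.784 to 1.86 and 0.657 to 1.11 CPM. SYP (log2 fold change 0.79, adjusted p = 0.00147, edgeR) and COL1A1 (1.22, adjusted p = 0.0313, edgeR) were called higher, where 11.9% of all genes tested were. The groups overlapped for COL1A1, which had 14, 5 and 12 counts in Control libraries. Between 32.5% and 34.6% of the listed reads in Control libraries, and 35.6% to 39.5% in OE libraries, were assigned to no gene. The part of these shifts in the results was not tested, and less RNA per cell and fewer cells with a transcript cannot be told apart in bulk RNA.

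MTF1 lies on the minus strand of chromosome 1 of hg38, from 37809574 to 37859592. It was counted 139, 133 and 229 times in Control replicates 1, 2 and 3 and 178, 120 and 258 times in the OE replicates. These counts are 36.3, 41.2 and 40.0 CPM in Control and 38.7, 33.4 and 33.9 CPM in OE libraries. The groups overlapped, because OE replicate 1 exceeded Control replicate 1. Its log2 fold change was -0.15 (95% interval -0.46 to 0.17, adjusted p = 0.510, edgeR). The interval leaves room for a level in OE cells between 0.725 and 1.12 times that in Control cells. MTF1 activity depends on zinc binding and on entry into the nucleus, which transcript counts do not measure.

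SLC30A1 encodes ZnT1, the zinc exporter of the plasma membrane and a classical target of MTF1, and lies on the minus strand of chromosome 1 from 211571568 to 211579161. It was counted 23, 12 and 28 times in Control and 13, 10 and 23 times in OE libraries. This gave 6.01, 3.72 and 4.89 CPM in Control and 2.83, 2.78 and 3.02 CPM in OE libraries. Each OE library lay below each Control library, and the Control libraries were spread more widely, with a coefficient of variation of 23.5% against 4.41%. On the log2 scale the OE libraries differed by -0.76 (standard error 0.34, 95% interval -1.48 to -0.04), with an unadjusted p of 0.0408 and an adjusted p of 0.117 (edgeR), so that it missed the threshold at 10 to 28 counts per library.

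The promoters of SLC30A1 and of the metallothionein genes MT1X and MT2A are printed here because MTF1 acts on them through the metal response element. The promoter of SLC30A4 is printed because that gene read higher in OE libraries. The sequences are the 250 bases before the RefSeq transcription start on GRCh38.p14, read 5ʹ to 3ʹ on the strand of the gene. They span chr1:211579162-211579411 on the minus strand for SLC30A1, chr15:45522756-45523005 on the minus strand for SLC30A4, chr16:56682220-56682469 on the plus strand for MT1X and chr16:56608334-56608583 on the plus strand for MT2A. Capitals mark matches to the core of the element, written as TGCACNC and TGCGCNC and searched on both strands with overlaps allowed.
SLC30A1: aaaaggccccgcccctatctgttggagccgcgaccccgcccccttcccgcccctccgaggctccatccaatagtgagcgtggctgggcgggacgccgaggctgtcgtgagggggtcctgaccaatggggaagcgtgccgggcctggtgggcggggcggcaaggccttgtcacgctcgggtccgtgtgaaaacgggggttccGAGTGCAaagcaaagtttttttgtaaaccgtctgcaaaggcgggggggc
SLC30A4: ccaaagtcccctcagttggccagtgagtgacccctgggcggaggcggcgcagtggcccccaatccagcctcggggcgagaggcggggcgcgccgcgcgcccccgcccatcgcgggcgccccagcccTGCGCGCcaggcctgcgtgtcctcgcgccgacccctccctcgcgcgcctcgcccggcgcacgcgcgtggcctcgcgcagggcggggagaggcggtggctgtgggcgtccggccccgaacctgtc
MT1X: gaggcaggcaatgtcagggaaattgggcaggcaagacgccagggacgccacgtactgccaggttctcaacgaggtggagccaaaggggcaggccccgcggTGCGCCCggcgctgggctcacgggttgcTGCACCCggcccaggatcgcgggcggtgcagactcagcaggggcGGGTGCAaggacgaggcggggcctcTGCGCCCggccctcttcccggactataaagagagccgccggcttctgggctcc
MT2A: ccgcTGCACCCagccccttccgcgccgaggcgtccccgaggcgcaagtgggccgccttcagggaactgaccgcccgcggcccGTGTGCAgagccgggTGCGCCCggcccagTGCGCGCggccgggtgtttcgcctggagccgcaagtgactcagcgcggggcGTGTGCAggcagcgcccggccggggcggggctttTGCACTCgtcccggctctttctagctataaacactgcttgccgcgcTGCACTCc

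In the full window of 300 bases, which adds 50 bases after the start, SLC30A1 held 2 matches, 1 beginning 49 bases before the start and 1 beginning 24 bases after it. SLC30A4 held 1 match, MT1X held 4 and MT2A held 8. All 10 genes had an entry in the RefSeq promoter table, with 13 starts among them, and 5 genes had a match at a start: SLC30A1, SLC30A4, SLC39A1, SLC39A6 and SLC39A10. The match of SLC39A10 has the letters TGCACAC and begins 33 bases after the start of the downstream promoter entry. Among all 35116 promoters of the table, 29.6% held at least 1 match and 8.6% held at least 2. Among promoters of the genes tested, 37.3% held at least 1. Counted in the same way by promoter, 5 of the 13 starts of the 10 genes held at least 1 (38.5%), which is near that share. A match is a stretch of letters and no evidence of binding, and no match in this window says nothing of elements further away.

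Among genes that MTF1 is known to control, the metallothionein genes and SLC30A1 differed widely in the size of their change. All 5 metallothionein genes tested, of 11 listed, were called lower, where 13.7% of all genes tested were. Their log2 fold changes ran from -5.37 (MT1G) to -3.99 (MT1E), with a median of -4.59. MT2A had 496, 571 and 550 CPM in Control and 33.5, 23.1 and 33.5 CPM in OE libraries (log2 fold change -4.15, adjusted p = 1.25e-11, edgeR). MT1X, at -4.59, had OE counts of 9, 3 and 12, and MT1F had 2, 0 and 5. Both passed the filter on low counts through their Control libraries only, so their calls are no support for a fall. With at least 10 counts asked of every library, only MT1E and MT2A were tested. Both were called lower there (-3.97 and -4.12, adjusted p = 3.61e-10 and 5.02e-11, edgeR). The metallothionein genes resemble each other, and their reads could be split between copies. The upper end of the interval was -3.58 for MT1E, the smallest fall of the 5, while the lower end for SLC30A1 was -1.48; the difference between the genes was not itself tested.

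Of 6 further genes described as targets of MTF1, 4 were tested and 3 passed the threshold, where 25.5% of all genes tested did so. Of these 3, 2 were higher and 1 was lower. GCLC, the catalytic subunit of the enzyme that begins glutathione synthesis, had 36.9 ± 1.43 CPM in Control and 48.3 ± 1.40 CPM in OE libraries (SD, n = 3 each), and its log2 fold change was 0.39 (adjusted p = 0.0493, edgeR). SELENOW, a small selenoprotein, had a log2 fold change of 0.45 (adjusted p = 0.0256, edgeR). CSRP1, a LIM domain protein, had -0.49 (adjusted p = 0.0107, edgeR). NDRG1 had -0.12 (adjusted p = 0.737, edgeR). In the fit reported, the called genes of this list had both signs. Neither rise was stable when a library was left out: GCLC was past the threshold in 0 of the 6 such fits (nor with DESeq2, without a filter or from the deposited signal), and SELENOW in 3 of 6, with a log2 fold change of 0.30 without Control replicate 3.

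**Figure D2:**
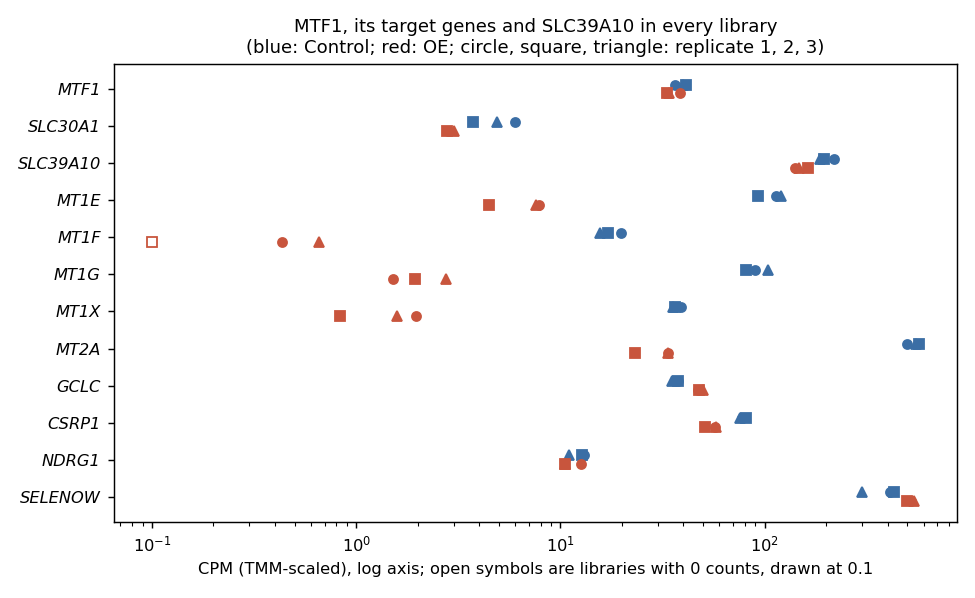
CPM (TMM-scaled, log axis) of MTF1, SLC30A1, SLC39A10 and the tested genes of the lists of metallothioneins and other MTF1 targets, in each Control library (blue, upper row of a gene) and OE library (red, lower row), with an open symbol at 0.1 for a library with 0 counts. The 5 metallothionein genes are shifted far to the left with Dox, MT2A from 496 to 571 CPM down to 23.1 to 33.5 CPM, while the points of MTF1 overlap between the groups.

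SLC30A4 had the largest change of the 10 genes. It encodes ZnT4, which loads zinc into endosomal and Golgi-derived vesicles, and lies on the minus strand of chromosome 15 from 45479606 to 45522755. It was counted 2, 3 and 5 times in Control and 19, 12 and 40 times in OE libraries. This gave 0.522, 0.930 and 0.873 CPM in Control and 4.13, 3.34 and 5.25 CPM in OE libraries. Each OE library was above each Control library, and Control replicates 1 and 2 were at or below 3 counts, the limit of detection used here. The log2 fold change of 2.44 (standard error 0.46, 95% interval 1.48 to 3.41, adjusted p = 7.52e-04, edgeR) corresponds to a 5.44-fold higher level, with an interval from 2.78-fold to 10.6-fold. Of all genes tested, 0.883% had a larger change in either direction. Because of the way this gene passed the filter, given next, neither this rank nor the adjusted p is support for the rise.

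The rise of SLC30A4 has limits of measurement. The gene passed the filter on low counts, 2.37 CPM on library totals, through its 3 OE libraries and in 0 Control libraries, and a gene that enters in this way had to differ. Its p, its rank and the lack of overlap are therefore no support for the rise. The filter that asks for at least 10 counts in every library left it out, and its calls in the other alternatives are no support either. With the antisense transcript SLC30A4-AS1, which runs on the opposite strand and overlaps the last 500 bases of the SLC30A4 transcript, it shares the stretch from which 3ʹ libraries draw their reads. SLC30A4-AS1 is not a row of the count table under this name. Whether reads were counted by strand is not given in the sources used here, so that reads of the antisense transcript cannot be told apart from those of SLC30A4.

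SLC30A5 encodes ZnT5, which forms a heterodimer with ZnT6 in the early secretory pathway and supplies zinc to enzymes made there, and lies on the plus strand of chromosome 5 from 69093991 to 69131069. It had 41.8, 28.8 and 37.4 CPM in Control and 39.6, 30.3 and 38.6 CPM in OE libraries. The libraries of both groups covered the same range, with replicate 2 the lowest in each. This gave a log2 fold change of 0.0091 (95% interval -0.35 to 0.37, adjusted p = 0.978, edgeR). SLC30A6, the gene of the partner, had 16.7, 16.4 and 18.9 CPM in Control and 22.2, 20.6 and 24.7 CPM in OE libraries. Its groups did not overlap, but its log2 fold change of 0.38 missed the threshold (95% interval -0.0073 to 0.76, adjusted p = 0.143, edgeR).

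The ratio of both partners within a library needs no scaling between libraries. The counts of SLC30A5 were 2.50, 1.75 and 1.98 times those of SLC30A6 in Control and 1.78, 1.47 and 1.56 times in OE libraries. On the log2 scale (pseudocount 0.5), the mean ratio was 1.03 ± 0.26 in Control and 0.68 ± 0.14 in OE libraries (SD, n = 3 each). The difference of -0.36 had a p of 0.2 in a two-sided exact permutation test, which cannot go below 0.1 with 3 libraries against 3. OE replicate 1 lay above Control replicate 2, so that the groups overlapped.

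SLC30A9 encodes ZnT9, which exports zinc from mitochondria, and lies on the plus strand of chromosome 4 from 41990502 to 42090461. It had 146.0, 143.3 and 168.8 CPM in Control and 153.3, 190.1 and 132.5 CPM in OE libraries. The OE libraries spanned both the highest and the lowest value of the 6. Between the groups, the log2 fold change was 0.05 (95% interval -0.25 to 0.35, adjusted p = 0.844, edgeR).

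All 5 SLC39 genes of the set had a log2 fold change under 0, from -0.53 to -0.03, as had 5932 of all 12233 genes tested. Of the 5, 3 passed the threshold, where 13.7% of all genes tested were called lower. SLC39A9, at -0.03, was above 0 in 3 of 14 alternatives. The 6 other SLC39 genes tested, given below, were split, with 3 above 0 and 3 under 0. The largest fall of the 5 was that of SLC39A7, which encodes ZIP7, the transporter that releases zinc from the endoplasmic reticulum into the cytosol. The gene lies on the plus strand of chromosome 6 from 33200305 to 33204439. It was counted 1066, 734 and 1308 times in Control and 738, 601 and 1362 times in OE libraries. This gave 278.4, 227.6 and 228.3 CPM in Control and 160.5, 167.3 and 178.9 CPM in OE libraries. Each OE library lay well below each Control library, and Control replicate 1 stood above the other Control libraries. SLC39A7 thus changed by -0.53 on the log2 scale (standard error 0.13, 95% interval -0.80 to -0.27, adjusted p = 0.00469, edgeR), a level that fell by 30.9%. SLC39A7 kept its call in all 14 alternatives (adjusted p 4.94e-04 to 0.0433).

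SLC39A10 encodes ZIP10, a plasma membrane zinc importer, and lies on the plus strand of chromosome 2 from 195575977 to 195737702. It had 218.6, 196.0 and 186.8 CPM in Control and 140.5, 163.9 and 147.0 CPM in OE libraries, with no overlap. SLC39A10 fell by 0.41 on the log2 scale (standard error 0.12, 95% interval -0.68 to -0.15, adjusted p = 0.0207, edgeR). The call was lost without Control replicate 1 (-0.36, adjusted p = 0.110, edgeR) and without OE replicate 1 (-0.37, adjusted p = 0.102, edgeR), and the adjusted p ran from 0.0106 to 0.110 over all alternatives.

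SLC39A6 encodes ZIP6 (LIV-1), a close relative of ZIP10 with which it forms a heteromer, and lies on the minus strand of chromosome 18 from 36108531 to 36129385. It had 331.5, 280.3 and 323.6 CPM in Control and 260.3, 225.1 and 276.5 CPM in OE libraries. The groups did not overlap, with OE replicate 3 just below Control replicate 2. Its log2 fold change was -0.30 (95% interval -0.56 to -0.03), with an unadjusted p of 0.0332 and an adjusted p of 0.101 (edgeR), which missed the threshold.

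That SLC39A10 passed the threshold and SLC39A6 did not does not show a difference between the partners. The counts of SLC39A10 were 0.660, 0.699 and 0.577 times those of SLC39A6 in Control and 0.540, 0.728 and 0.532 times in OE libraries. The mean log2 ratio was -0.64 ± 0.14 in Control and -0.75 ± 0.26 in OE libraries (SD, n = 3 each). The difference of -0.12 was smaller than the SD of either group, with p = 0.6 in a two-sided exact permutation test. OE replicate 2 had the highest ratio of the 6 libraries.

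**Figure D3:**
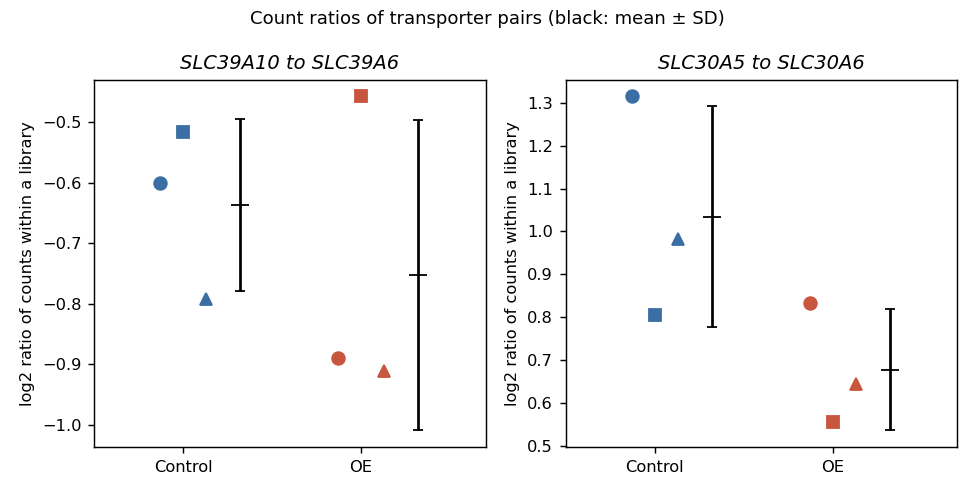
Log2 ratio of counts within each library (pseudocount 0.5) for SLC39A10 to SLC39A6 and SLC30A5 to SLC30A6, with circles, squares and triangles for replicates 1, 2 and 3 and black bars for the mean ± SD (n = 3). The groups overlap for both pairs, and the vertical axes do not start at 0.

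SLC39A1 encodes ZIP1, regarded as a main route of zinc uptake into prostate epithelial cells, and lies on the minus strand of chromosome 1 from 153959099 to 153968184. It had 338.0, 321.3 and 328.0 CPM in Control and 269.6, 217.1 and 282.0 CPM in OE libraries. The Control libraries lay close together, with a coefficient of variation of 2.56%, and every OE library was below them, with OE replicate 2 the lowest. Its log2 fold change was -0.36 (standard error 0.13, 95% interval -0.63 to -0.09), and the adjusted p of 0.0481 (edgeR) lay just inside the threshold. The call was kept in 6 of 14 alternatives, and in 1 of the 6 fits that left out a library.

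SLC39A9 encodes ZIP9, a zinc transporter of the Golgi and plasma membrane that has also been described as a membrane receptor for androgens, and lies on the plus strand of chromosome 14 from 69398015 to 69462390. It had 62.2, 61.4 and 57.1 CPM in Control and 68.9, 43.4 and 62.8 CPM in OE libraries. The OE libraries lay both above and below the Control libraries. Its log2 fold change was -0.03 (95% interval -0.37 to 0.30, adjusted p = 0.906, edgeR). Without OE replicate 2 it was 0.13.

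The 10 genes differed in how far their values held under other processing of the counts. MTF1 stayed between -0.22 and -0.03 on the log2 scale over 14 alternatives and SLC30A1 between -0.90 and -0.61, and neither passed the threshold in any of them (adjusted p for SLC30A1 0.0944 to 0.340). SLC39A6 stayed between -0.37 and -0.17, also without a call (adjusted p 0.0579 to 0.334). SLC39A7, SLC39A10 and SLC39A1, the SLC39 genes of the set that were called lower, had a value under 0 in all 14 alternatives.

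**Figure D4:**
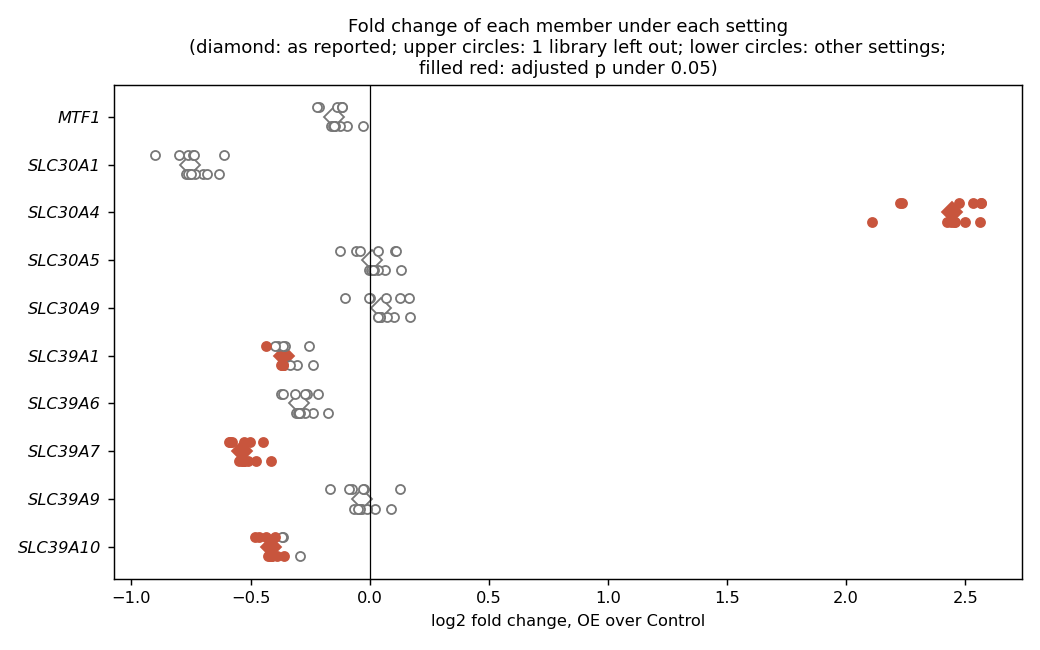
Log2 fold change (OE over Control) of each of the 10 genes as reported (diamond), with 1 library left out (upper circles) and under the other settings (lower circles); filled red symbols have an adjusted p under 0.05. The red symbols of SLC39A7 run from -0.59 to -0.41 and those of SLC30A4 from 2.11 to 2.57, while SLC39A1 mixes red and open symbols.

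**Figure D5:**
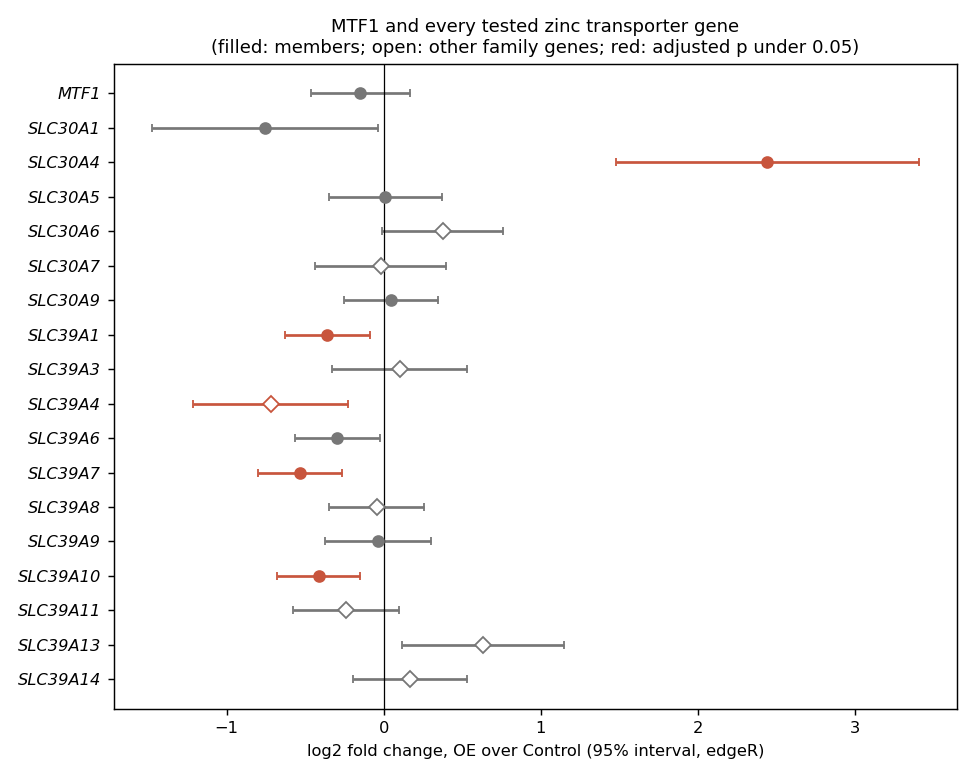
Log2 fold change (OE over Control) with its 95% interval from edgeR for MTF1 and the 17 tested genes of both transporter families. Filled circles are the 10 genes of the set, open diamonds are other family genes, and red marks an adjusted p under 0.05; SLC30A4 stands at 2.44, and the called SLC39 genes lie between -0.72 and -0.36.

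The rest of both families was read from lists of every other SLC30 and SLC39 gene. Of 6 other SLC30 genes, 2 were tested and 0 passed the threshold in edgeR, DESeq2 or any other alternative, with 0 at an unadjusted p under 0.05 in edgeR. SLC30A7, which encodes a Golgi transporter, had a log2 fold change of -0.02 (adjusted p = 0.960, edgeR). SLC30A2, SLC30A3, SLC30A8 and SLC30A10 did not pass the filter and had at most 11 counts in any library.

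Of 9 other SLC39 genes, 6 were tested and 1 passed the threshold, where 25.5% of all genes tested did so. SLC39A4, the importer of dietary zinc whose loss causes acrodermatitis enteropathica, had 15.9, 12.4 and 16.9 CPM in Control and 9.57, 6.96 and 10.6 CPM in OE libraries. Each OE library was lower, with a change of -0.72 on the log2 scale (standard error 0.23, adjusted p = 0.0315, edgeR). It lost its call in 4 of the 6 fits without a library, with DESeq2 and under library totals alone, where the adjusted p reached 0.121 at most.

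The remaining tested SLC39 genes did not pass in the fit reported. SLC39A13, the gene of an intracellular zinc transporter needed by connective tissue, had a log2 fold change of 0.63 with no overlap between the groups (adjusted p = 0.0669, edgeR). It was called higher with upper quartile normalization (adjusted p = 0.0466, edgeR), under library totals alone (adjusted p = 0.0297, edgeR) and without OE replicate 2 (adjusted p = 0.0410, edgeR), while its adjusted p without OE replicate 3 was 0.319 (log2 fold change 0.39, edgeR). SLC39A3, SLC39A8, SLC39A11 and SLC39A14 had 0.10, -0.05, -0.24 and 0.17, with overlapping groups. Over both families, 17 of 24 genes were tested and 5 passed the threshold, where 25.5% of all genes tested did so. Of these 5, SLC30A4 was higher, against 11.9% of all genes, and 4 were lower, against 13.7%. SLC30A4 passed the filter on low counts through its OE libraries only. Its place in these counts, and in the medians given next, is therefore no result. The median log2 fold change of the 17 genes was -0.03, where that of all genes tested was 0.02. The 11 tested SLC39 genes had -0.24 where the 6 tested SLC30 genes had 0.03.

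Protein kinase CK2 phosphorylates ZIP7 and so opens it. None of its genes passed the threshold: CSNK2A1, CSNK2A2 and CSNK2B had log2 fold changes of -0.37, -0.24 and -0.17 (adjusted p = 0.0625, 0.295 and 0.328, edgeR). CSNK2A1 was called lower without a filter (-0.38, adjusted p = 0.0462, edgeR) and without Control replicate 3 (-0.48, adjusted p = 0.0308, edgeR), but not with DESeq2 (adjusted p = 0.0785).

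Some of the genes share ground with another gene on the opposite strand that is also in the count table, and strand-blind counting would leave such reads uncertain. These are CREB3L4 at SLC39A1, RXRB at SLC39A7, ERH at SLC39A9 and HMGN2P46 at SLC30A4. None of the 4 overlaps the last 500 bases of the canonical transcript of its partner. An antisense lncRNA does so at SLC30A5, and a gene model on the same strand does so at SLC39A1, and neither is a row of the table under its current name. Their log2 fold changes were -0.83 for CREB3L4, 0.46 for RXRB and -0.55 for ERH, while HMGN2P46 had at most 3 counts and was not tested. CREB3L4 (adjusted p = 0.00131, edgeR) had the same sign as SLC39A1, and ERH (adjusted p = 0.00336, edgeR) the same sign as SLC39A9. RXRB, at an adjusted p of 0.0864 (edgeR), differed in sign from SLC39A7. The part of shared reads in these values was not tested.

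For the sensor and the pair of transporters most tied to it, the closest patterns across the 6 libraries were found by the root mean square difference of log2(CPM + 1) centred on its mean, among genes with a mean of at least 50 counts. For MTF1 these were HPCAL1, IPO7 and SPR, with differences of 0.024, 0.030 and 0.039 on the log2 scale. For SLC30A1 they were ZNF367, ZWINT and TRIP13, with 0.064, 0.065 and 0.077. For SLC39A10 they were CDS1, MAP2 and GRWD1, with 0.037, 0.040 and 0.050. The differences rest on 6 libraries and are given as a description.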

How the data were processed

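RNA from 6 libraries was measured by QuantSeq 3ʹ mRNA sequencing, for which the methods name the REV kit and the labels the FWD kit. Single-end reads of 100 bp were aligned by the authors to hg38 using STAR, and the deposited table holds raw counts for each gene symbol. Per the labels, HTSeq and edgeR were among the tools used, and the annotation and strand setting are not given in the sources used here. The authors also deposited, for each library, a normalized signal scaled to nearly equal totals by a method not stated, which served as an alternative after log2(value + 1). Rows that name no gene were left out of totals and tests; ambiguous reads were 3.05% to 3.37% of those listed.

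Counts were tested with edgeR 4.0.16 in R 4.3.3 (filterByExpr, TMM, quasi-likelihood test, OE against Control, Benjamini-Hochberg over 12233 genes, threshold 0.05). Standard errors are the log2 fold change divided by the root of F. Ratios of 2 genes were tested by exact permutation in scipy 1.17.1. Alternatives were other normalizations and filters, DESeq2 1.42.0, limma 3.58.1 on the deposited signal, a block for the replicate number, and fits that left out each library. The members, lists and tests were chosen with earlier results of these data known; named are all members, tested transporter genes, listed genes past the threshold and the 3 nearest patterns, and a few others given after their values were seen. In simulated counts of 12233 genes, 100 were changed 2-fold and 100 were changed 4-fold. The test called 83% and 97% of them, and 6.74% of its calls were false. The data had 3125 calls, and the members called lower changed less than 2-fold, so these shares do not carry over to the calls reported. Coordinates are those of GENCODE 44 on hg38, and promoters those of RefSeq. A count of 3 was taken as the limit of detection, 0.394 to 0.930 CPM by library, which covers counting error only. Replicates differed by more than sampling noise (chi-square per degree of freedom 4.35 to 12.2). A gene of the lists is not reported here.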

Additional observations from a re-analysis of the deposited data

How the results depend on the processing

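The log2 fold changes of the 10 genes and ABHD5 and the 2 ratios were recomputed under the alternatives, which gave 169 values: 149 kept their direction and side of the threshold, 11 missed a threshold passed before and 9 changed sign. Those that changed sign belong to genes not past the threshold under any setting: SLC39A9 with upper quartile normalization (0.021) and library totals alone (0.088), and SLC30A5 without a filter (-0.0050). Across the 6 fits that each left out a library, SLC30A5 ran from -0.12 to 0.11, SLC30A9 from -0.10 to 0.16 and SLC39A9 from -0.16 to 0.13. SLC39A1 missed the threshold with upper quartile normalization (-0.30), library totals alone (-0.24) and at least 10 counts in every library (-0.34), and it ran from -0.43 to -0.26 with a library left out, past the threshold only without OE replicate 3 (adjusted p 0.0247 to 0.152, edgeR). SLC39A10 missed it under library totals alone (-0.29), and ran from -0.48 to -0.36 with a library left out. Under library totals alone the median of all genes moved from 0.02 to 0.14, the genes called higher from 1451 to 2179, the share of calls that were higher from 46.4% to 65.7%, and the members called lower from 3 to 1. The members called higher became 0 with at least 10 counts in every library, since SLC30A4 was then not tested. With a library left out, 953 to 1459 genes were called higher, and 1 to 3 members lower, with 1 without Control replicate 1 or OE replicate 1. For the other changes the cause was not tested. The fit reported did not pair same-numbered libraries, whose deviations had an r of -0.01, 0.24 and 0.09 across genes. These values do not settle whether same-numbered libraries shared a culture or batch. With the replicate block, 3537 genes were called in place of 3125. The log2 fold change of SLC39A10 was then -0.41, and no member's call changed, while CSNK2A1 was called lower (-0.36, adjusted p = 0.0317, edgeR). SLC30A1 rests on 10 to 28 counts per library, and the parts of counting error and library spread in its error were not separated.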

Other observations

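Several genes of zinc handling did not pass the filter on low counts and are given as counts. MT1H had 10, 5 and 12 counts in Control and 1, 0 and 1 in OE libraries, and MT1M had 5, 4 and 8 counts in Control and 0 in each OE library. MT3 had 3, 6 and 0 counts in Control and 0 in each OE library. Without a filter, these 3 metallothionein genes were called lower (adjusted p = 7.10e-04 for MT1H, 0.00206 for MT1M and 0.0308 for MT3, edgeR). With DESeq2, MT1H was called lower (adjusted p = 0.0124), and MT1M and MT3 got no adjusted p. PGF, a growth factor gene described as a target of MTF1, had 1, 0 and 0 counts in Control and 7, 1 and 5 in OE libraries. TMEM163, which encodes a zinc transporter of synaptic vesicles, had 4, 2 and 4 counts in Control and 0, 1 and 4 in OE libraries. Neither PGF nor TMEM163 was called without a filter (adjusted p = 0.119 and 0.464, edgeR). GPR39, the gene of a receptor that senses extracellular zinc, HAMP, MT1B, MT4 and SLC39A12 had 0 counts in every library, which allows up to 3 counts per library.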
